A study of Mus musculus with 8 samples.

Results

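The genes described here encode the ephrins and their Eph receptors, the semaphorins with their plexin and neuropilin receptors, and the Slits with their Robo receptors. They were taken by symbol from the deposited table of muscle stem cells, which gave 61 of its 31723 genes: 14 Eph receptors, 8 ephrins, 20 semaphorins, 9 plexins, 2 neuropilins, 3 Slits, 4 Robos and the antisense transcript Plxna4os1. Muscle stem cells, the progenitors that repair skeletal muscle, had been sorted by flow cytometry from the hindlimbs of wild-type C57BL/6 mice and used without culture. There were 4 libraries from young mice of 3 months and 4 from old mice of 20 months, and all 8 came from freshly isolated cells and amplified cDNA. The labels do not say whether a library is 1 animal or a pool, so that p-values measure the spread between these samples, which may be technical. The study concerns ageing, the methyl donor S-adenosylmethionine and heterochromatin, and the comparison its libraries allow is old against young.

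Ephrins stay on the cell surface, the A type on a lipid anchor and the B type through a transmembrane segment, and they bind Eph receptor tyrosine kinases on touching cells, with signals passing into both. Semaphorins bind plexins, which act on small GTPases. The secreted class 3 semaphorins mostly need a neuropilin as a co-receptor, whereas the other classes are attached to the membrane. Slits are secreted and bind Robo receptors, which repel growing axons and migrating cells. In mouse muscle, ephrins have been shown to steer the movement of cultured satellite cells and Sema3a is secreted by activated satellite cells. Robo4 and Nrp1, the latter also a co-receptor for vascular endothelial growth factor, are well known from endothelial cells.

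The values are normalized counts, that is, reads per gene divided by a size factor of the library. The depth, recovered as whole reads, ranged over the libraries from 19040274 to 34679757 reads. The 10 muscle stem cell markers summed to between 169440 and 214868 normalized counts in young and between 157441 and 182152 in old. On their mean log2 level the exact permutation p was 0.0857 (two-sided, 0.343 adjusted over 8 marker lists). Of the 10, 3 were above 0 in old over young, none was called higher, and Calcr, Itga7 and Chrdl2 were called lower. Pax7 was at 2441 ± 419 in the young libraries and 2749 ± 493 in old (SD, n = 4). Markers of other cells were present too. The 12 endothelial markers summed to 118754 normalized counts in young library 3 and 95979 in old library 3, against 32117 to 58797 in the other 6 libraries. The 19 fibro-adipogenic and tenocyte markers summed to between 95589 and 167528 in young and between 128890 and 382479 in old, with 16 of the 19 above 0 in old over young, 5 of them called higher and none lower. Their mean log2 level was 10.1 in young and 11.5 in old (exact permutation p = 0.0571, two-sided, 0.343 adjusted over 8 marker lists), and that of the endothelial list 11.7 and 11.6 (exact permutation p = 0.886). The smallest p that the 70 arrangements of 4 and 4 libraries can give is 0.0286. In bulk RNA, fewer cells of a type and less RNA per cell cannot be told apart.

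Of the 61 genes, 53 had a mean of at least 10 normalized counts and were tested with limma on log2(normalized count + 1), with p-values adjusted by Benjamini-Hochberg over all 14822 tested genes and a threshold of 0.05. In old cells 3 of the 53 fell and none rose, where 1.88% of all tested genes fell and 3.34% rose. The 3 were the EphB receptor Ephb1, the membrane-spanning semaphorin Sema4f and the Slit receptor Robo1. At an unadjusted p under 0.05, 4 were higher (background 12.7%) and 6 lower (background 8.06%). At an adjusted p under 0.05 on recovered reads, edgeR called 0 higher (background 2.76%) and the same 3 lower (2.01%), and so did DESeq2 (5.18% and 4.05%). The median log2 fold change (old over young) of the 53 was 0.067, beside 0.045 over all tested genes, with 29 above 0 and 24 below. The changes ran from -1.25 to 1.77, and 34 were smaller than 0.5 in size. Quantile normalization put both medians below 0, at -0.046 and -0.031.

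**Figure D1:**
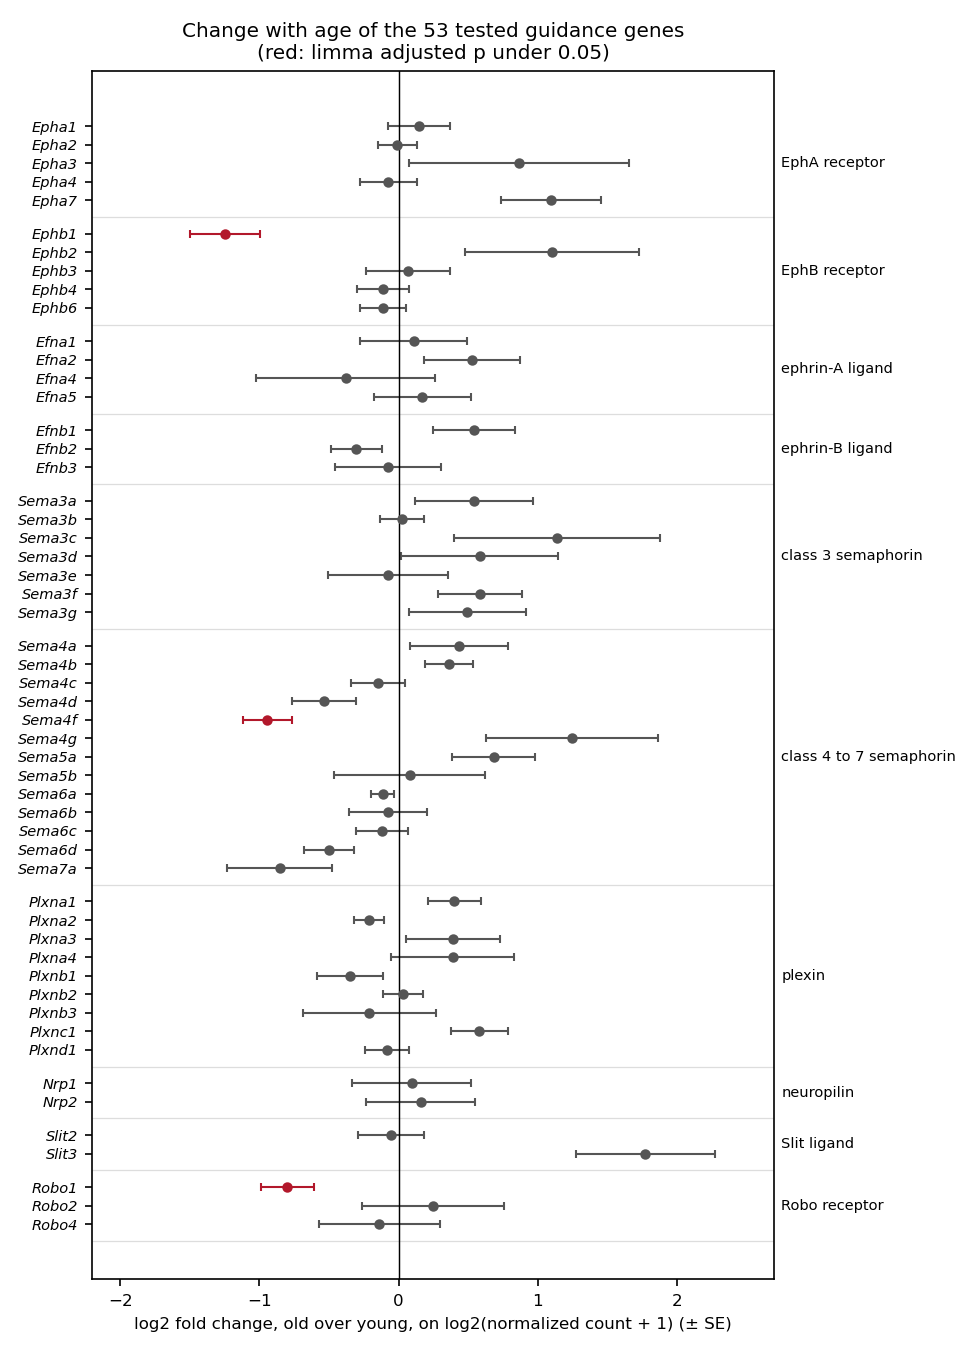
Log2 fold change, old over young, with its SE for each of the 53 tested guidance genes, grouped by role, red where the limma adjusted p was under 0.05. Ephb1, Sema4f and Robo1 are the 3 red points, between -1.25 and -0.80, and Slit3 is the farthest to the right at 1.77.

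Ephb1 is a receptor for the B-type ephrins. It had 547, 413, 534 and 354 normalized counts in young libraries 1 to 4 and 176, 211, 289 and 124 in old libraries 1 to 4. Every old library lay below every young one. The means were 462 ± 93.6 and 199.9 ± 69.3 (SD, n = 4), a log2 fold change of -1.25 ± 0.25 (limma adjusted p = 0.0213). In the GENCODE M21 annotation 152 of its 7002 exon bases overlap a gene model on the other strand, and the labels do not state whether the libraries kept strand. Of the 61 guidance genes, 11, Ephb1 among them, share exon bases with a gene model on the other strand.

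Sema4f, a class 4 semaphorin studied mainly in neurons and glia, had 214, 181, 205 and 258 normalized counts in the young libraries and 117, 89.1, 118 and 119.6 in old. The groups did not overlap, and 3 of the 4 old libraries lay between 117 and 119.6. The means were 214 ± 31.99 and 111 ± 14.7 (SD, n = 4), a log2 fold change of -0.94 ± 0.18 (limma adjusted p = 0.0157).

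Robo1, a Slit receptor that in mice repels axons and migrating cells, had 1567, 1786, 1127 and 1540.3 normalized counts in the young libraries and 901, 934, 1054 and 597 in old. Young library 3, the lowest of its age, and old library 3, the highest of its age, came close to each other without crossing. The means were 1505 ± 275 and 872 ± 194 (SD, n = 4), a log2 fold change of -0.80 ± 0.19 (limma adjusted p = 0.0387). Over all 53 genes, 3 had every old library below every young one (background 5.46%), and these were the same 3. Plxnc1 alone had every old library above every young one (background 7.99%).

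Leaving out 1 library kept all 3 below 0, with Ephb1 from -1.45 to -1.04, Sema4f from -1.02 to -0.84 and Robo1 from -0.93 to -0.63. Sema4f kept its call in 7 of these 8 fits, Ephb1 in 5 and Robo1 in 2. Ephb1 lost its call without young library 1 (adjusted p = 0.0641), old library 1 (0.062) or old library 2 (0.0517), Sema4f without young library 4 (0.0512), and Robo1 without young library 1, 2 or 4 or old library 1, 2 or 4 (0.0753 to 0.101), so that 1 of the 3 was left in 4 of these 8 fits. All tested genes lower in old numbered 118 to 316 in them, beside 278 with every library. The muscle stem cell markers Calcr, Itga7 and Chrdl2 were lower in old too, and the part of that list in these 3 results was not tested. With the level of the fibro-adipogenic and tenocyte markers as a covariate no guidance gene was called higher (background 0.0607%) or lower (background 0.0337%). Ephb1 stood at -0.76 ± 0.35, Sema4f at -0.71 ± 0.27 and Robo1 at -0.75 ± 0.30. That marker level was itself higher in old on average (10.1 in young, 11.5 in old). This fit, here and for the genes below, therefore cannot cleanly separate the marker level from age. The Schwann cell and glial markers summed to 12815 to 23642 in young and 15231 to 21564 in old. Their mean log2 level, the covariate, was 8.09 in young and 8.54 in old (exact permutation p = 0.229). Of the 12 markers, 10 were above 0 in old over young, 1 of them called higher and none lower. With that covariate no guidance gene was called higher (background 0.972%) or lower (background 0.486%). Ephb1, Sema4f and Robo1 stood at -1.08 ± 0.28, -0.80 ± 0.20 and -0.74 ± 0.23. With the endothelial markers all 3 stayed called, at -1.23 ± 0.22, -0.94 ± 0.19 and -0.80 ± 0.18 (adjusted p = 0.00572, 0.0101 and 0.0205 by limma). In that fit 4 of the 53 fell (background 3.21%), Sema7a being the added one, and Efnb1, Sema3f and Slit3 rose (background 5.96%).

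**Figure D2:**
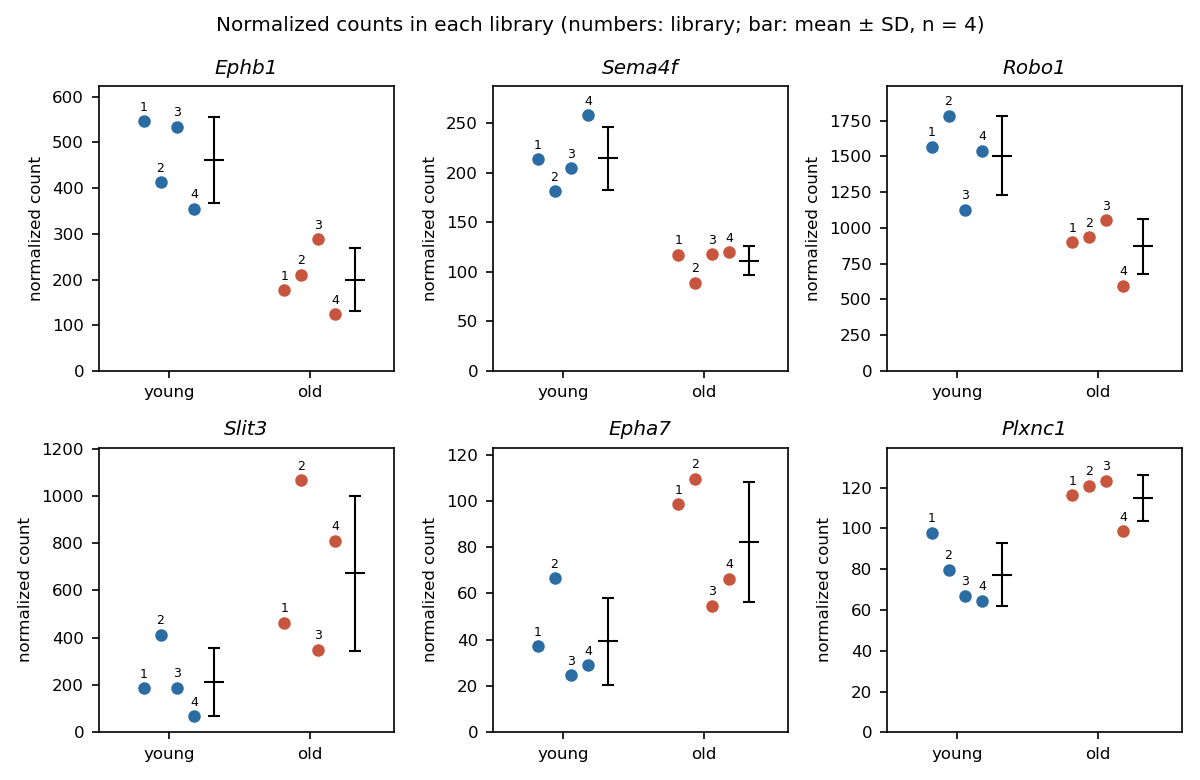
Normalized counts of 6 guidance genes in each library, with the mean and SD of each age (n = 4) beside the points and the library number above them. Old libraries lie below all young libraries for Ephb1, Sema4f and Robo1 and above them for Plxnc1, while the ages overlap for Slit3 and Epha7.

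The sequence before the start of these 3 genes is shown because they are the guidance genes that fell. Each stretch of 300 bases, from 250 before the RefSeq start to 50 after it on GRCm38.p6, is written 5′ to 3′ on the gene's strand, with capitals marking E-boxes (CANNTG, searched on both strands), the letters to which myogenic factors such as Myod1 and Myf5 bind. The Sema4f stretch is chr6:82939720-82940019 (minus strand), that of Ephb1 chr9:102354644-102354943 (minus strand) and that of Robo1 chr16:72662899-72663198 (plus strand).
Sema4f: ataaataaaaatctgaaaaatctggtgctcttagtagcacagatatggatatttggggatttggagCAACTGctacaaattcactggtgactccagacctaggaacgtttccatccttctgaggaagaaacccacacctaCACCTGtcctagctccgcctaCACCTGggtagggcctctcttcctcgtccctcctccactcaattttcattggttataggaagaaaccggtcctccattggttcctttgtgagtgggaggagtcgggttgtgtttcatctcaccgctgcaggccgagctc
Ephb1: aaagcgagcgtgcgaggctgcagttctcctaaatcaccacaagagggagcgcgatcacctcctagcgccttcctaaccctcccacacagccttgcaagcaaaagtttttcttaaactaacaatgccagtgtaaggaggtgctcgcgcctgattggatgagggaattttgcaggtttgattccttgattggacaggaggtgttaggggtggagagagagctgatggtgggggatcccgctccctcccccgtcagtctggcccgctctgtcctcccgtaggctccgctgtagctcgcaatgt
Robo1: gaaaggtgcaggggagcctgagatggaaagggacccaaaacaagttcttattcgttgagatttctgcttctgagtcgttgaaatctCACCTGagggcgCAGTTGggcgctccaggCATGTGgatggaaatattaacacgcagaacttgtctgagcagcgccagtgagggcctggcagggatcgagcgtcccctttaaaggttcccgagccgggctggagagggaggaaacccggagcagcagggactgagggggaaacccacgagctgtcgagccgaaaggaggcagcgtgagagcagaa
There were 3 such matches for Sema4f, 0 for Ephb1 and 3 for Robo1, where 72.3% of 32851 RefSeq promoters of this length held at least 1. CAGCTG, a form of the same motif, was in none of the 3 stretches and in 16.3% of all promoters. GC content was 48.7% for Sema4f, 55.7% for Ephb1 and 57.0% for Robo1, beside a median of 52.7%. RefSeq promoters were matched by symbol for 53 of the 61 genes.

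Among the other Eph receptors no change passed the test. Ephb4, the partner of Efnb2 between veins and arteries, had the highest level per exon length among the EphB receptors, 380.2 normalized counts per kilobase in young and 355 in old, and a log2 fold change of -0.11 ± 0.19. Epha2 led the EphA receptors at 183 per kilobase in young and 179 in old, and its change was -0.0085 ± 0.14. Epha4, known from the guidance of motor axons into the limb, was at -0.074 ± 0.20. Epha7 had the largest change of the EphA receptors, from 37.2, 66.5, 24.7 and 28.9 normalized counts in young to 98.5, 109, 54.7 and 66.5 in old. Young library 2 lay among the old values, and the change was 1.10 ± 0.36 (limma adjusted p = 0.11). Without young library 2 it was 1.38 (adjusted p = 0.0485), with the fibro-adipogenic and tenocyte covariate 0.21 ± 0.44, and with the Schwann covariate 0.72 ± 0.36. Epha3 and Ephb2, both low, changed by 0.87 ± 0.79 and 1.10 ± 0.63. With the fibro-adipogenic and tenocyte covariate they changed by -1.76 and -0.70, and with the Schwann one by -0.26 and 0.33.

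Epha3 had 33.6, 71.2, 17.6 and 10.7 normalized counts in the young libraries and 77.9, 111, 8.59 and 70.4 in old. In each age its highest library was number 2, which was also the highest of its age for the fibro-adipogenic and tenocyte markers, and old library 3 was the lowest of the old for both. Among the young libraries the lowest differed, number 4 for Epha3 and number 3 for these markers. By mean log2 level the pericyte and smooth muscle list and the Schwann list were also highest in number 2 of each age. The part of any of these lists in the Epha3 counts was not tested. Ephb6, a receptor whose kinase is inactive, lay between 349 and 580 normalized counts in all 8 libraries and changed by -0.11 ± 0.17, Ephb3 lay between 205 and 527 (0.067 ± 0.30), and Epha1 between 160 and 286 (0.15 ± 0.22). For each of them the ages overlapped over most of the range. Epha5, Epha6 and Epha10 stayed under 9 normalized counts in every library and were not tested. Epha8, an ephrin-A receptor reported at neuromuscular junctions of mice, had 0 reads in all 8 libraries, which allows up to 3 reads a library, or 1.80 to 3.22 normalized counts, for counting error only.

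None of the ephrins passed the test. Efna1 had the highest level per exon length of the ligands, 525 normalized counts per kilobase in young and 546 in old. Its counts were 616, 994, 1713 and 519.8 in young and 842, 704, 1734 and 715 in old, so that library 3 was the highest of both ages, and the change was 0.11 ± 0.39. Efnb2 was at 1833 ± 181 in young and 1526 ± 409 in old (SD, n = 4), a change of -0.30 ± 0.18 (limma adjusted p = 0.393). Efnb1, another ligand of Ephb1, had 408, 768, 925 and 417 in young and 681, 820.4, 1302 and 749 in old. The ages overlapped, and the change was 0.54 ± 0.29 (adjusted p = 0.331). With the endothelial covariate it was 0.58 ± 0.13 (adjusted p = 0.0193). Efnb3 (-0.076 ± 0.38) and Efna5 (0.17 ± 0.35), which helps to place migrating muscle precursors in the chick limb, had mean counts of 27.9 and 21.9. Efna2, at 19.8 to 70.4 normalized counts, changed by 0.53 ± 0.34, and Efna4, at 4.09 to 34.2, by -0.38 ± 0.64. Efna3, a ligand found on slow fibres in mice, was not tested, at 12.9 ± 4.41 in young and 6.48 ± 3.99 in old (SD, n = 4).

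**Figure D3:**
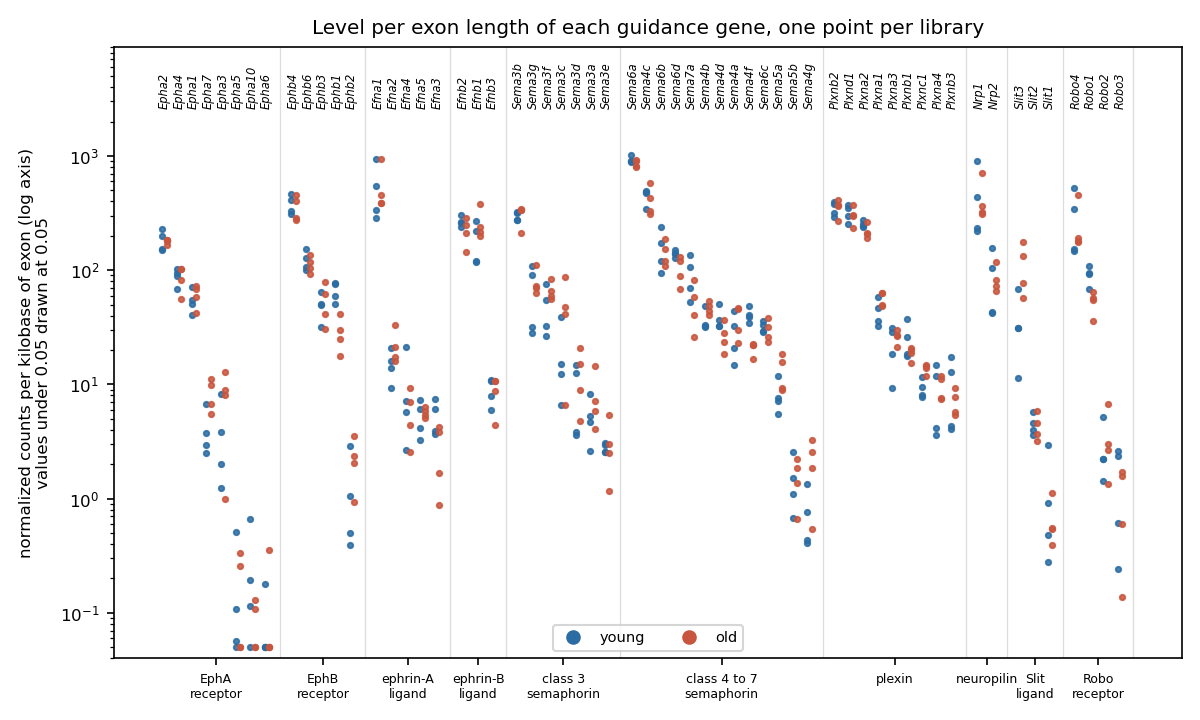
Normalized counts per kilobase of exon of the guidance genes above 0, one point per library, on a log axis and ordered by level within each role (values under 0.05 drawn at 0.05). Sema6a has the highest mean level, Epha5, Epha6 and Epha10 the lowest, and the ages overlap for most genes.

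Of the semaphorins, 6 of 7 tested class 3 members had a change above 0 and none passed. Sema3b was the most abundant of them per exon length (296 normalized counts per kilobase in young, 307 in old) and differed least, by 0.027 ± 0.16. Sema3a, the secreted cue for motor axons, had 72.3 ± 31.8 normalized counts in the young libraries and 109 ± 63.9 in old (SD, n = 4). Its change was 0.54 ± 0.43 (limma adjusted p = 0.523), -0.015 with the fibro-adipogenic and tenocyte covariate and 0.15 with the Schwann one. Sema3f, a ligand for Nrp2, had 169, 286, 395 and 137 in young and 292, 307, 434 and 342 in old. Its change was 0.58 ± 0.30 (adjusted p = 0.313), and 0.62 ± 0.17 with the endothelial covariate (adjusted p = 0.0395). Sema3c went from 87.7, 280.2, 47.3 and 107 in young to 296, 339.9, 47.2 and 626 in old. Both libraries numbered 3 lay near 47, the ages overlapped, and the change of 1.14 ± 0.74 was -1.46 ± 0.47 with the fibro-adipogenic and tenocyte covariate, neither of which passed (adjusted p = 0.432 and 0.336). With the Schwann covariate the change was 0.18 ± 0.66.

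The other class 3 members stood at 0.58 ± 0.56 for Sema3d (31.2 to 178 normalized counts), -0.074 ± 0.43 for Sema3e (10.7 to 49.7) and 0.49 ± 0.42 for Sema3g (129 to 509). The SEs of Sema3c, Sema3d, Sema3e and Sema3g were all above 0.4, against a median of 0.17 over all tested genes and 0.30 over the tested guidance genes. What size of change would have passed for them was not tested. Summed over the class, the counts were 2261 ± 434 in young and 2741 ± 399 in old (SD, n = 4), of which Sema3b supplied the most.

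Among the membrane-attached semaphorins, 8 of 13 were below 0 and Sema4f was the one that passed. Sema6a had the highest mean level per exon length of all 61 genes, 927 normalized counts per kilobase in young and 856 in old. Its counts of 7799.9, 7883, 8905 and 7948 in young and 6997, 8024, 7158 and 7887 in old overlapped, and it changed by -0.11 ± 0.083. Sema4c, which has been tied to myoblast differentiation in mouse cells, was at 2057 ± 327 and 1892 ± 556 (SD, n = 4), a change of -0.15 ± 0.19. Sema7a, held by a lipid anchor, had 232, 354, 448 and 174 in young and 191, 132, 273 and 86.0 in old. Its change was -0.85 ± 0.38 (limma adjusted p = 0.231), with the endothelial covariate -0.81 ± 0.22 (adjusted p = 0.0421), and with the fibro-adipogenic and tenocyte covariate -0.18 ± 0.54.

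Sema6d, a Plxna1 ligand, had 1477, 1596, 1505 and 1364 normalized counts in the young libraries and 947, 1277, 1367 and 726 in old. Old library 3 overlapped the lowest young library, and the change was -0.50 ± 0.18 (limma adjusted p = 0.144). Sema4d, the ligand of Plxnb1, was at 250.4, 281, 251 and 388 in young and 216, 181, 141 and 282 in old, a change of -0.54 ± 0.23 (adjusted p = 0.217). Sema5a was at 134, 223, 143 and 102 in young and 292, 347, 174 and 167 in old. It changed by 0.68 ± 0.30 (adjusted p = 0.224), and by 0.097 ± 0.41 with the fibro-adipogenic and tenocyte covariate. With the Schwann covariate it changed by 0.30 ± 0.27.

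The remaining class 4 to 7 genes did not pass either. Sema4b lay between 181 and 272 normalized counts in young and between 229 and 303 in old, a change of 0.36 ± 0.17 (limma adjusted p = 0.274). Sema4g had the largest estimate of the class, 1.24 ± 0.62 (adjusted p = 0.289), from 3.53 to 11.6 normalized counts in young and 4.69 to 28.2 in old, near the 3 reads taken as a floor. Sema4a was at 0.43 ± 0.35, Sema6b at -0.075 ± 0.28, Sema6c at -0.12 ± 0.19 and Sema5b at 0.080 ± 0.54.

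None of the 9 plexins and 2 neuropilins passed the test. The plexins with the highest levels per exon length were Plxnb2 at 346 normalized counts per kilobase in young and 355 in old, Plxnd1 at 318 and 301, and Plxna2 at 252 and 219. Their changes were 0.031 ± 0.14, -0.083 ± 0.16 and -0.21 ± 0.11. Plxnc1, the receptor of Sema7a, had 97.9, 79.8, 67.0 and 64.5 normalized counts in the young libraries and 116, 121, 123 and 98.5 in old. Young library 1 and old library 4 almost met, and the change was 0.58 ± 0.20 (limma adjusted p = 0.137), with 0.55 ± 0.33 under the fibro-adipogenic and tenocyte covariate. Plxna1 was at 292, 527, 424 and 328 in young and 453, 572, 443 and 568 in old, overlapping, with a change of 0.40 ± 0.19 (adjusted p = 0.266). It shares 970 exon bases with a gene model on the other strand. Plxnb1, the Sema4d receptor, was at 171 to 355 in young and 146 to 199 in old, a change of -0.35 ± 0.24. Plxna3 and Plxna4, partners of the neuropilins for class 3 semaphorins, each changed by 0.39, with SEs of 0.34 and 0.44, and Plxnb3 by -0.21 ± 0.48. The antisense transcript Plxna4os1 stayed under 7 normalized counts and was not tested.

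Nrp1 had 2143, 4250.3, 8932 and 2279.8 normalized counts in the young libraries and 3046, 3186, 7006 and 3541 in old. Library 3 was far above the rest in both ages, and the change with age was 0.094 ± 0.43, or 0.16 ± 0.11 with the endothelial covariate. Nrp2 had 513, 1240.4, 1835 and 495 in young and 853, 963, 1395 and 784 in old, a change of 0.16 ± 0.39, or 0.21 ± 0.16 with that covariate. Robo4, the endothelial member of the Robo receptors, had 778, 1834, 2779 and 814 in young and 936, 954, 2433 and 1011 in old. Its change was -0.14 ± 0.44, or -0.078 ± 0.12 with the endothelial covariate. For all 3 the SE was smaller with the endothelial marker level of each library in the fit. The SE was also smaller for Ephb3 (0.30 without and 0.19 with), which was lowest in library 3 of both ages. For Sema4f it was larger (0.18 and 0.19).

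Of the 53 tested genes, 11 were highest in library 3 of both ages (background 13.4%), as the endothelial markers were. Besides Nrp1, Nrp2, Robo4, Efna1, Efnb1, Efnb2, Ephb4, Sema3f and Sema7a these were Sema6b and Robo2. How many of the reads of these genes came from endothelial cells was not tested.

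**Figure D4:**
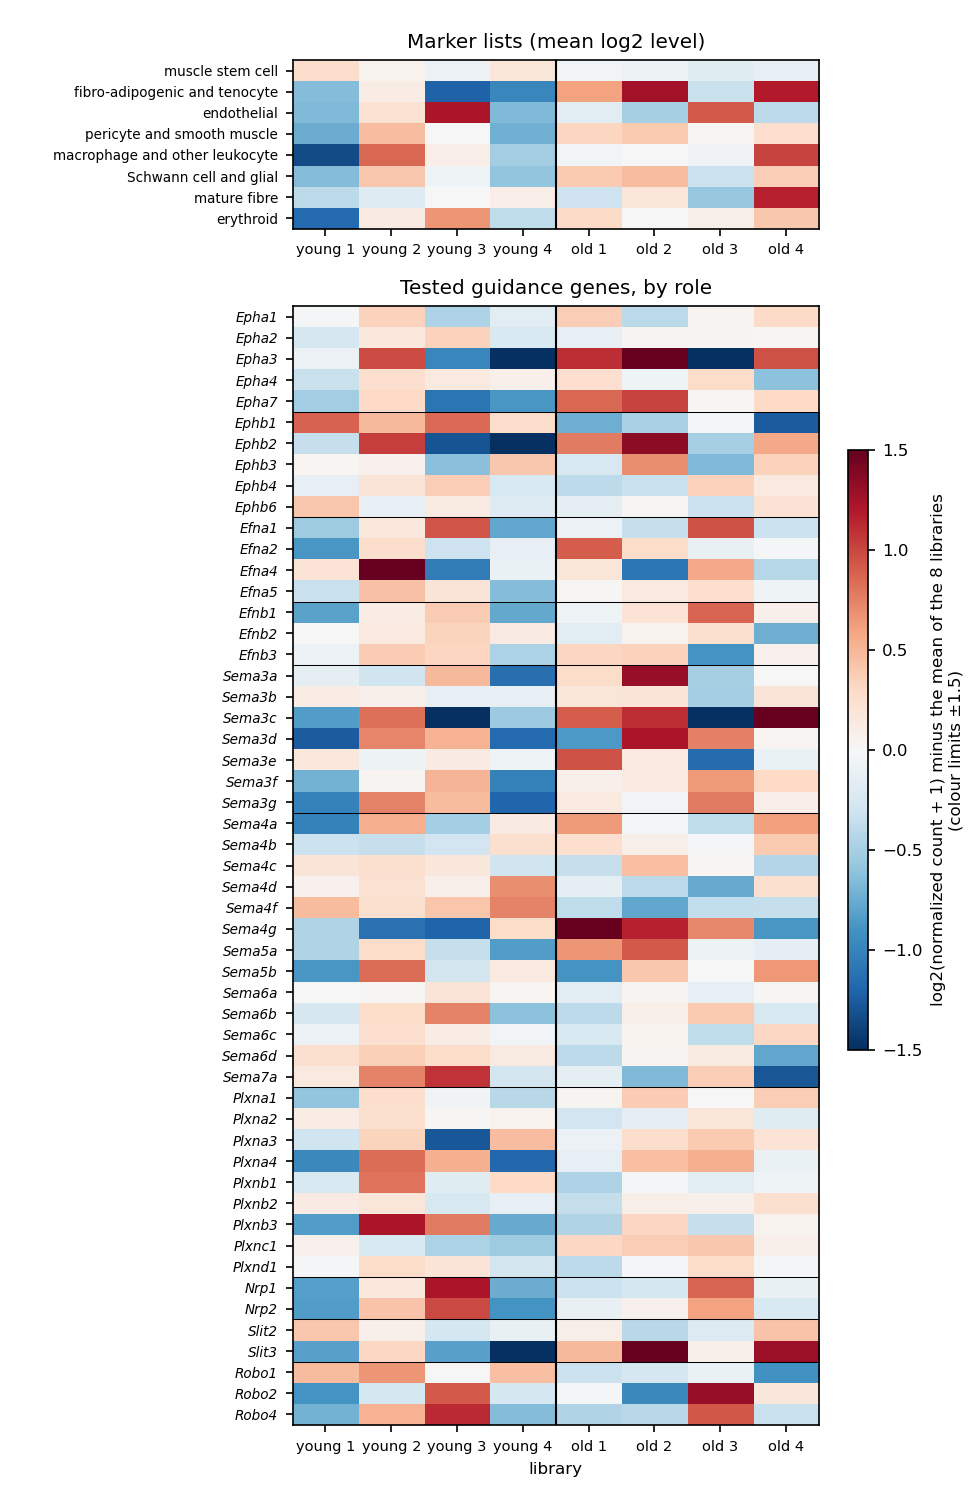
Deviation of each library from the mean of all 8 on the log2(normalized count + 1) scale, for the mean level of 8 marker lists (top) and the 53 tested guidance genes by role (bottom). Nrp1, Nrp2, Robo4 and Efna1 are reddest in young library 3 and old library 3, as the endothelial markers are, and Slit3 is bluest in young library 4.

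Slit3, a secreted ligand of the Robo receptors, had the largest change of all 53 genes but did not pass the test. It had 188, 412, 188 and 69.4 normalized counts in the young libraries and 465, 1066, 349.9 and 809.9 in old. The lowest old library, number 3, lay below the highest young library, number 2. The means were 214 ± 143 and 672 ± 327 (SD, n = 4), a log2 fold change of 1.77 ± 0.50 (limma adjusted p = 0.0718). Without young library 2 the change was 2.17 and passed (adjusted p = 0.0305). Among the old libraries its order, from number 2 down through 4 and 1 to 3, was that of the mean log2 level of the fibro-adipogenic and tenocyte markers, which was 12.1, 12.01, 11.4 and 10.5. Among the young libraries the orders differed, since the markers ran from number 2 through 1 and 4 down to 3 (10.9, 10.2, 9.84 and 9.60), while Slit3 was lowest in number 4. With that level as a covariate the change was 0.31 ± 0.51 (adjusted p = 0.87), and with the endothelial one 1.77 ± 0.48 (adjusted p = 0.0417). The Schwann cell and glial level as covariate gave 1.04 ± 0.39 (adjusted p = 0.273). Since the fibro-adipogenic and tenocyte level was itself higher in old on average, its part in the change of Slit3 cannot be told apart from age. Slit2 was at 113 ± 23.3 and 110.1 ± 28.9 (SD, n = 4), a change of -0.056 ± 0.24. Slit1, at 1.65 to 17.6 normalized counts, and Robo3, at 0.94 to 18.05, were not tested, and Robo2 changed by 0.25 ± 0.51 from a mean of 46.9.

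**Figure D5:**
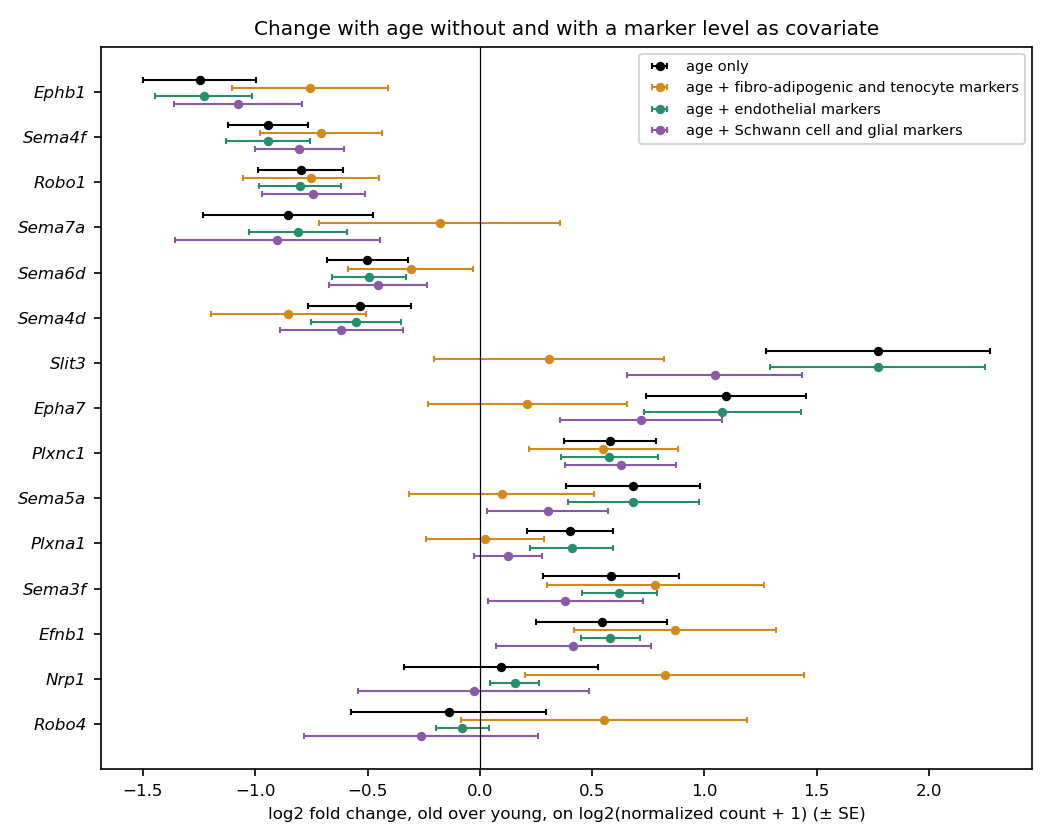
Log2 fold change, old over young, with its SE for 15 guidance genes, from the fit with age alone and from fits that add the mean log2 level of 1 marker list. The estimates of Robo1 and Plxnc1 move little between fits, though Robo1 passes only with age alone and with the endothelial markers, as Sema4f does. Sema4f, Slit3 and Epha7 lie nearest 0 with the fibro-adipogenic and tenocyte markers, and the error bars of Nrp1 and Robo4 are shortest with the endothelial markers.

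Other genes of the same pathways were taken from a list of 83 names covering netrins and their receptors, co-receptors and cytoplasmic mediators. Of 78 tested, 3 rose and 1 fell, beside the backgrounds of 3.34% and 1.88%, and their median change was 0.051. Nrcam, an adhesion molecule that acts as a semaphorin co-receptor, had 86.5, 134, 71.9 and 90.9 normalized counts in the young libraries and 329, 489, 280.1 and 403 in old. The lowest old library lay far above the highest young one, and the change was 1.97 ± 0.23 (limma adjusted p = 0.00223). It was 1.28 ± 0.24 with the fibro-adipogenic and tenocyte covariate (adjusted p = 0.102), and passed with the Schwann one.

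Ntn4, a netrin that sits in basement membranes, rose from 3062, 3174, 2833 and 3076 normalized counts to 3901, 4827, 4155 and 4606, without overlap (0.52 ± 0.089, limma adjusted p = 0.0104). Dpysl3, of the collapsin response mediators, rose from 525 ± 210.1 to 1276 ± 274 (SD, n = 4), a change of 1.35 ± 0.27 (adjusted p = 0.0220). It lost the call without young library 1 or 4 or old library 2 or 4 (0.0512 to 0.0713). Limk1, the kinase that blocks cofilin, fell from 219 ± 17.2 to 139.5 ± 22.3 (SD, n = 4), a change of -0.66 ± 0.16 (adjusted p = 0.0455). It lost the call without any 1 library except old library 1 (0.0609 to 0.118). With the fibro-adipogenic and tenocyte covariate none of these 3 passed, Ntn4 being at 0.36 ± 0.13 (adjusted p = 0.389), Dpysl3 at 0.97 ± 0.41 (0.476) and Limk1 at -0.61 ± 0.26 (0.479). With the Schwann covariate none passed either, at 0.50 ± 0.11 (0.0666), 0.97 ± 0.23 (0.0815) and -0.68 ± 0.20 (0.148). Among the next by p, these did not pass: the repulsive guidance molecule Rgmb (0.32 ± 0.083, adjusted p = 0.0529), the netrin Ntn1 (0.67 ± 0.18, 0.0614) and Vav3, an exchange factor downstream of Eph receptors (-0.29 ± 0.089, 0.0939).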

How the data were processed

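RNA-seq of sorted muscle stem cells gave a deposited table of normalized counts for 31723 genes in 8 libraries. Per the submitters' processing notes, the tools were STAR, DESeq2, featureCounts, Subread 1.5.1 and Trim Galore 0.4.2, and builds GRCm39 and mm10 are named without a role. The deposited signal of a gene is its reads divided by a size factor. Dividing each column by the value of 1 read gave a whole number, to within 0.01 reads, at 99.97% or more of the values above 0, with depths of 19040274 to 34679757 reads. The amplified cDNA carried no molecular identifiers.

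The main test was limma 3.58.1 (R 4.3.3) with eBayes and an intensity trend on log2(normalized count + 1), which understates the change of low genes. Age was the only term, and genes were tested where their mean normalized count was 10 or more, two-sided, with Benjamini-Hochberg adjustment over all of them. The fit was tried on simulated data in which genes varied independently of each other. Those data lacked differences between libraries shared by many genes, such as those of the marker lists. edgeR 4.0.16 and DESeq2 1.42.0 ran on the recovered reads as alternatives, and other pseudocounts, filters, scalings, left-out libraries and marker levels as covariates were also tried. Levels per kilobase used exon lengths of GENCODE M21 (GRCm38), matched by symbol for all 61 genes, and promoters came from RefSeq GRCm38.p6. The table names genes by symbol and holds no coordinates, and those printed are of the RefSeq promoters.

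Named were all called members, the 8 next by p, the 6 with the highest counts, members with a known place in muscle, and the called and 4 next pathway genes, of which 1 is not reported here. The members named outside that rule, Sema3b, Sema3c and Sema3f among them, were added after their values were seen. The members and lists were chosen with earlier results of these data known.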

Additional observations from a re-analysis of the deposited data

Results flagged for a closer look

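In 80 groups of 4 libraries, 1 for each age of each tested gene named by the rule, 5 held a library set apart by a gap that, as a share of the group's range, exceeded Dixon's limit for 4 samples. Chance flags about 1 in 20 groups. Sema4f in old library 2 was at 89.1 normalized counts, below 117 to 119.6 in the other old libraries. Sema6a in young library 3 was at 8905, above 7799.9 to 7948. Sema4c in young library 4 was at 1571, below 2177 to 2279. Robo4 in old library 3 was at 2433, above 936 to 1011, in a library whose endothelial markers summed to 95979 normalized counts against at most 45220 in the other old ones. The netrin gene Ntn1 in young library 3 was at 584, below 945 to 1008.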

How the results depend on the processing

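Of 917 fold changes of named genes under 23 alternatives, 801 kept their direction and their side of the threshold, 42 kept the direction and lost the call, 18 gained a call and 56 changed sign. The cause was not tested unless stated. Beside 0 higher and 3 lower guidance genes, 1 was higher with the replicate number as a block (Slit3) and 3 with the endothelial covariate, 1 was lower without an intensity trend (Sema4f), and 0 were lower with the fibroblast or the Schwann covariate. Leaving out 1 library gave 0 to 2 higher and 1 to 3 lower, the fits having fewer samples. The median change of the tested guidance genes, 0.067, was -0.11 with the Schwann covariate. Beside 3 higher and 1 lower of the other pathway genes, the counts were 5 and 3 with DESeq2, 0 and 0 with the fibroblast covariate, 7 and 2 with the endothelial one, and 1 and 0 with the Schwann one, and 0 were lower without a filter, with equal library totals or with the block. Leaving out 1 library gave 2 to 4 higher and 0 to 1 lower.

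Same-numbered libraries of both ages correlated in their deviations from the group means at 0.188, 0.0723, 0.304 and -0.0416 over 14822 genes. Numbers 1 and 3 correlated best with their own number from either age. Old library 2 did too, but young library 2 correlated best with old library 4 (0.145). Young library 4 correlated best with old library 1 (0.119), and old library 4 with young library 2. The labels do not say whether same-numbered libraries share more than a number, and these values do not settle it. The main fit did not pair them.

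Sign changes were limited to changes that had not passed the test. With edgeR Nrp1 was at -0.087 and Nrp2 at -0.050. With DESeq2 Nrp1 was at -0.094, Nrp2 at -0.057 and Plxnb2 at -0.0055. With the Schwann covariate Nrp1 was at -0.028, Nrp2 at -0.14, Efna5 at -0.055 and Epha3 at -0.26. With the fibroblast covariate Plxnb2 was at -0.20, Sema3a at -0.015, Robo4 at 0.55, Efnb2 at 0.050, Epha3 at -1.76, Epha4 at 0.21, Ephb2 at -0.70 and Ephb4 at 0.10. With the endothelial covariate Epha2 was at 0.0050, and with quantile normalization Efna5 was at -0.069. With sample weights Plxnb2 was at -0.033, Robo4 at 0.00093, Efnb3 at 0.0052, Epha2 at 0.036 and Epha4 at 0.012. Without both libraries numbered 3, Plxnb2 was at -0.066, Efnb3 at 0.31 and Epha2 at 0.087. Leaving out 1 library moved Nrp1 from -0.18 to 0.52, Nrp2 from -0.11 to 0.52, Plxnb2 from -0.046 to 0.15, Plxnd1 from -0.19 to 0.034, Slit2 from -0.21 to 0.074, Robo2 from -0.15 to 0.61, Robo4 from -0.47 to 0.21, Efna1 from -0.19 to 0.44, Efna5 from -0.019 to 0.35, Efnb3 from -0.25 to 0.21, Epha2 from -0.092 to 0.10, Epha4 from -0.20 to 0.12 and Ephb4 from -0.25 to 0.0010.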
